A study of Mus musculus with 6 samples.

Results

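The solute carriers that move inorganic ions and metals across membranes were compared between young and old mouse neural stem cells, which self-renew in the brain and produce neurons and glial cells. The carriers are the genes with a platform symbol of the families Slc4a, Slc8a, Slc9a, Slc11a, Slc12a, Slc20a, Slc24a, Slc26a, Slc30a, Slc31a, Slc39a, Slc40a and Slc41a, and each stands for its brightest probe set, by the mean of the 6 arrays. There were 75 such carriers among 18193 genes named by a probe set with a single symbol. The donors were C57BL/6JRj mice, of the widely used black laboratory strain. Young donors were 6 weeks old and old donors 9 months old, with 3 samples per age and an array for each sample. Nothing in the labels names a genotype change, a treatment, a brain region, or whether a replicate is an animal or a culture of its own. The p-values therefore reflect only how these samples spread, which may be technical variation.

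These carriers set the ionic conditions in which a cell works. Exchangers of the Slc4a, Slc9a and Slc26a families trade protons, bicarbonate, chloride and sulfate and so hold the pH of the cytosol and of organelles, while Slc12a cotransporters set cell volume and the chloride gradient on which the response to the transmitter GABA depends. Slc8a and Slc24a exchangers expel calcium in trade for sodium, and Slc41a carriers move magnesium. Slc30a carriers take zinc out of the cytosol, Slc39a carriers bring zinc and some iron and manganese into it, and Slc31a, Slc11a and Slc40a serve copper and iron.

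The deposited values are log2 expression levels. A value of log2 4 stands here for the level under which a probe set is not taken as measured, and a carrier was tested where at least 3 of the 6 arrays lay above it. By that filter 37 carriers were measured and 38 were not. The other 38 lay under log2 4 on all 6 arrays, with 3.87 as their highest value, and 27 of them sat at the lowest value of the table on every array. Values at that floor give no order and do not show that a transcript is absent. Of the 37 carriers measured, 1 lay above log2 4 on arrays of only a single age, Slc8a3, which passed through the young arrays.

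Old cells held more transcript of 11 carriers and less of 3, out of 37 tested (limma, Benjamini-Hochberg adjusted p under 0.05 over all probe sets). Over all 19858 probe sets tested, 36.6% passed in either direction, 20.1% higher and 16.5% lower in old cells. Of the 10050 named genes measured, each by its brightest probe set as the carriers are, 40.6% passed. The share of carriers that passed, 37.8%, lay between these shares and near both. At an unadjusted p under 0.05, 5140 probe sets were higher and 4290 lower in old cells. The median change of the carriers above the filter was log2 0.20, beside 0.01 over all probe sets tested. Without young replicate 3 the carriers' median was 0.11. The arrays of the ages did not overlap for 18 carriers with all old arrays above and 4 with all old arrays below the young ones. Over all probe sets tested 55.3% did not overlap, 29.4% with the old arrays above and 25.9% with them below. Of the 14 carriers that passed, 4 changed at least 2-fold and 10 changed less than 1.5-fold. The count of higher carriers dropped to 6 without old replicate 1 or young replicate 3 and to 7 without old replicate 2 or 3. The count of lower carriers dropped to 1 without any single old replicate or young replicate 1, and to 2 without young replicate 3. The 7 carriers Slc8a3, Slc24a3, Slc26a2, Slc30a1, Slc30a4, Slc39a12 and Slc41a1 kept their call and direction on leaving out each array. For Slc8a3 this carries no weight, as it passed the filter only through its high young arrays. The same holds for Slc39a12, which needed its high old arrays to pass the filter, with only young replicate 1 above log2 4 in young cells.

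**Figure D1:**
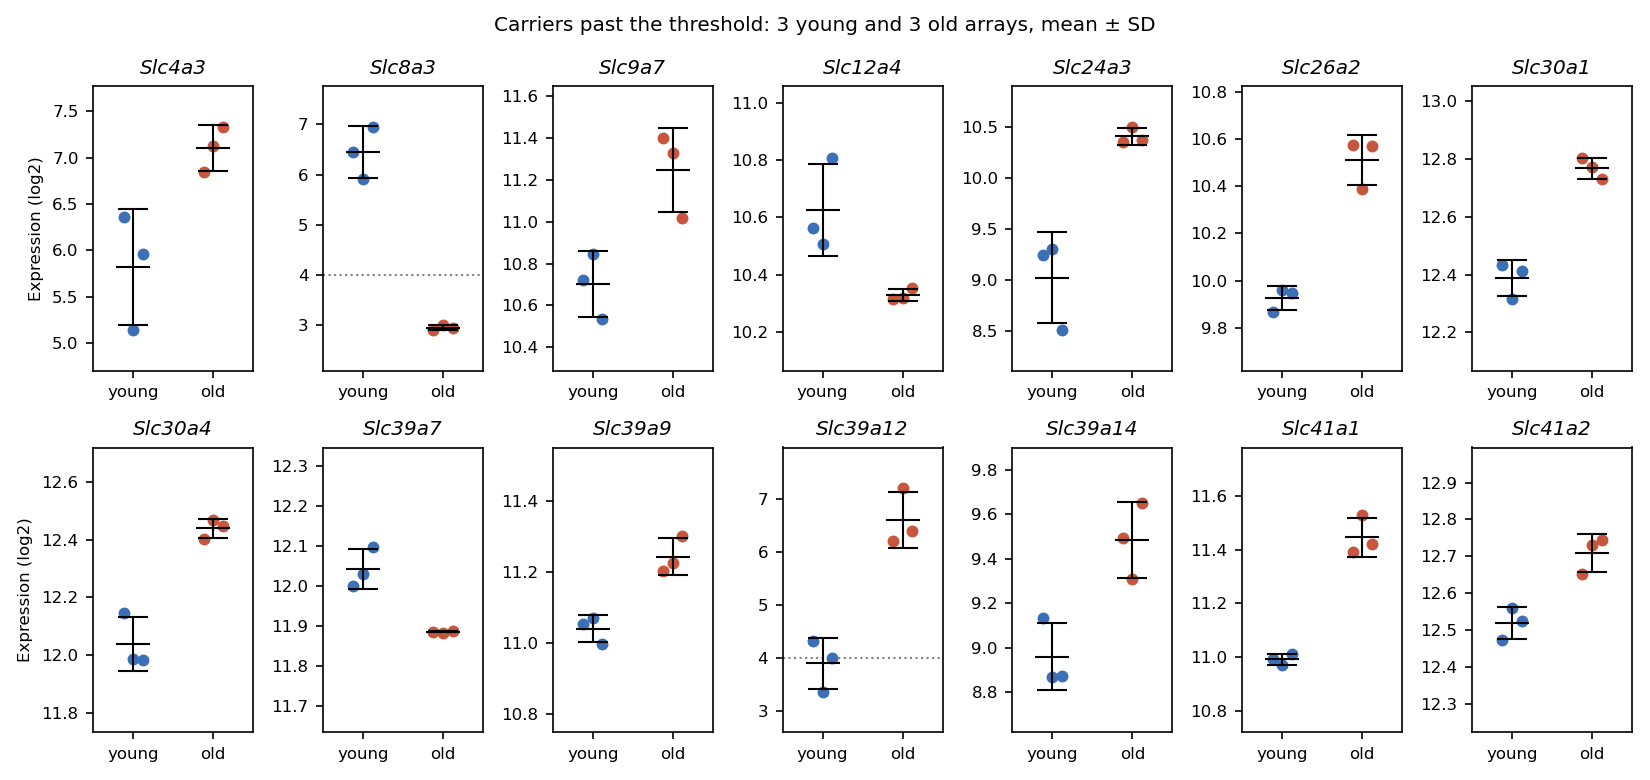
Log2 expression of the 14 carriers past the threshold on the 3 young (blue) and 3 old (red) arrays, with the mean and SD as black bars and log2 4 as a dotted line where it falls in range; each panel has its own axis. In every panel the old points lie all above or all below the young points, and Slc8a3 and Slc39a12 span the widest ranges.

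The arrays themselves differed beyond the carriers. The ages parted on the first principal component of the kept probe sets (83.2% of the variance). The second (9.93%) spread the young arrays, with young replicates 2 and 1 at its ends and the old arrays close together between them. Among the 37 carriers above the filter, young replicate 2 was the lowest young array for 21. The 18 hybridisation controls, which are added in fixed amount, averaged 13.24 ± 0.28 (log2, SD, n = 3) on young and 12.28 ± 0.098 on old arrays. They differed by -0.96 (two-sided exact permutation p = 0.1, the smallest that 3 against 3 can give). As a sign of RNA quality, the 3′ probe set of actin exceeded the 5′ one by 0.57 to 0.65 on young and 0.67 to 0.73 on old arrays (log2), with no overlap (exact permutation p = 0.1), and that of Gapdh by 0.32 to 0.35 and 0.32 to 0.41. The part of these differences in the changes of the carriers was not tested. The cell type markers that follow stand beside 20.1% higher and 16.5% lower of all probe sets tested. Of the 10 markers of neural stem cells and radial glia looked up on the arrays, 9 were measured on this scale. Nes, Sox9 and Egfr fell by 0.46, 0.35 and 0.40 on the log2 scale, and Hes5 fell at least 13.7-fold, from 7.52 to 7.91 on young arrays to under log2 4 on all old ones. Hes5 came above the filter only through the young arrays, where it was high, so nothing is drawn from the count of this list. Sox2, Pax6, Fabp7, Slc1a3 and Vim did not pass, and the median change of the 9 measured markers was -0.14. The list's mean level was 11.66 to 11.73 on young and 10.88 to 10.95 on old arrays. That mean takes in Hes5 and the marker under the filter. All 9 markers of microglia and macrophages and all 3 of erythroid cells lay under log2 4 on every array, as did 6 of 7 endothelial, 7 of 9 mural and fibroblast, and 6 of 7 ependymal and choroid plexus markers. The measured members of the last 3 lists all passed, with Flt1 at -1.22, Acta2 at -1.33, Cspg4 at -1.99 and Foxj1 at 2.45. Of 8 oligodendrocyte lineage markers 4 were measured, of which Pdgfra (-1.44) and Cspg4 fell and Olig1 and Olig2 did not pass. Their mean level was 6.44 to 6.48 on young and 5.99 to 6.07 on old arrays. Of 8 astrocyte markers Aqp4, Aldh1l1, S100b and Gja1 were higher and Slc1a2 was lower in old cells, Gfap and Aldoc did not pass, and Gjb6 was at the floor. Their mean level was 8.33 to 8.73 on young and 9.31 to 9.71 on old arrays. Of 10 markers of neuroblasts and neurons Tubb3, Snap25 and Elavl3 were lower, and Map2 did not pass (0.12, all old arrays above). Stmn2, Rbfox3, Slc17a7 and Gad2 were at the floor at both ages. Dcx and Syt1 were under the filter too, and 5 of the 10 lay under log2 4 on all arrays. The mean level of the list was 5.06 to 5.35 on young and 3.95 to 4.04 on old arrays. In samples of many cells, fewer cells of a type and less RNA per cell cannot be told apart.

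Of the 10 carriers of calcium and magnesium 4 were measured, and Slc24a3, Slc41a1 and Slc41a2 rose while Slc8a3 fell. Slc8a3 came above the filter only through the young arrays, where it was high, so nothing is drawn from their count, beside which 36.6% of all probe sets tested passed. Slc8a3 encodes a plasma membrane exchanger that brings sodium in and puts calcium out. It read 6.46, 5.92 and 6.95 on young replicates 1 to 3 and 2.90, 3.00 and 2.94 on the old ones. All young arrays lay above and all old arrays below log2 4. The fitted change was -3.50 ± 0.26 (log2, SE, adjusted p = 0.000586), and against log2 4 the fall was at least 5.45-fold. Its old values lay near the floor, where the spread is understated, so nothing is drawn from that p-value. Of the 4 measured neuron markers given above 3 were lower on the same old arrays, beside 16.5% of all probe sets tested. Markers of other cell types were lower as well, namely Nes, Sox9, Egfr, Pdgfra, Cspg4, Flt1 and Acta2. The part of any of these markers in this result was not tested. The other sodium-calcium exchangers, Slc8a1 and Slc8a2, sat at the floor of 2.14 on all 6 arrays.

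Slc24a3 encodes an exchanger that also carries potassium along with calcium. Its level was 9.25, 9.31 and 8.51 on young arrays and 10.36, 10.51 and 10.38 on old arrays. Young replicate 3 was the low young array, and the old arrays lay close together. The gene rose by 1.39 ± 0.23 (log2, SE), or 2.62-fold (adjusted p = 0.00747). The lowest change of Slc24a3 on leaving out an array was 1.13. Slc8a3, a gene with a like task, fell, with -3.24 as its smallest fall on leaving out an array. Slc8a3 passed the filter only through its high young arrays, so no contrast is drawn between these genes. Slc24a1, Slc24a2 and Slc24a4 were under the filter.

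Slc41a1 encodes a magnesium carrier of the cell surface. It read 10.99, 10.97 and 11.01 in young and 11.39, 11.53 and 11.42 in old cells, so the young arrays differed by far less than the ages. It rose by 0.45 ± 0.05 (log2, SE, adjusted p = 0.00276), and its dimmer probe set rose by 1.05 (adjusted p = 0.0274). Slc41a2, its relative, went from 12.47, 12.56 and 12.53 to 12.65, 12.73 and 12.74. The rise of 0.19 ± 0.05 (log2, SE, adjusted p = 0.0375) was small and its call was lost on leaving out any array except young replicate 2 (adjusted p from 0.0538 to 0.116). It was lost as well when arrays were centred on their medians or quantile normalized again. Slc41a3 lay under log2 4 on every array.

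Other genes of calcium and magnesium transport were looked up beside them. Of 10 measured genes of calcium pumps and entry 5 rose and none fell in limma, beside 20.1% higher and 16.5% lower of all probe sets tested. At an unadjusted p under 0.05, 7 were higher and none lower, beside 5140 higher and 4290 lower of all 19858 probe sets tested. The median change of these 10 genes was 0.30. The store-operated channel Orai1 went from 7.65 ± 0.12 to 8.63 ± 0.09 (log2, SD, n = 3, adjusted p = 0.000969), and its relative Orai3 rose by 1.11. Micu2, a gatekeeper of the mitochondrial calcium channel, rose by 0.42 and Tmem165, a Golgi protein that handles calcium and manganese, by 0.32. Of 13 measured magnesium genes 5 rose and 1 fell, with a median of 0.15. The share that passed was 46.2%, beside 36.6% of all probe sets tested. The magnesium channels Trpm6 and Trpm7 rose by 0.80 and 0.46 on the log2 scale, the transporter Nipa1 by 1.02 and Tusc3 by 0.66.

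Zinc carriers were the largest group measured. In the exporters of the Slc30a family 2 of 6 rose and none fell, and in the importers of the Slc39a family 3 of 10 rose and 1 fell (limma, adjusted p under 0.05). The shares that passed, 33.3% and 40%, were near the 36.6% of all probe sets tested. At an unadjusted p under 0.05 the counts were 3 and 0 for Slc30a, and 4 and 2 for Slc39a. Of all 19858 probe sets tested, 5140 were higher and 4290 lower at that level. Slc30a1 encodes the main zinc exporter of the plasma membrane. It read 12.43, 12.32 and 12.41 on young and 12.80, 12.77 and 12.73 on old arrays. The old arrays lay all above the young ones, and the change was 0.38 ± 0.05 (log2, SE), or 1.30-fold (adjusted p = 0.00451). Its dimmer probe set rose by 0.85 (adjusted p = 0.0194). Slc30a4, which loads zinc into vesicles, read 12.15, 11.99 and 11.98 in young and 12.40, 12.47 and 12.45 in old cells. It rose by 0.40 ± 0.06 (log2, SE), or 1.32-fold (adjusted p = 0.00641).

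The windows before the starts of these exporters are shown because Slc30a1 is a known target of the zinc-sensing factor Mtf1, which binds the metal response element. Both rising exporters hold the core letters of that element in the 250 bases before the RefSeq start (GRCm38.p6). Capitals mark the core, searched as TGCACNC and TGCGCNC on both strands.
Slc30a1, chr1:191906531-191906780, plus strand: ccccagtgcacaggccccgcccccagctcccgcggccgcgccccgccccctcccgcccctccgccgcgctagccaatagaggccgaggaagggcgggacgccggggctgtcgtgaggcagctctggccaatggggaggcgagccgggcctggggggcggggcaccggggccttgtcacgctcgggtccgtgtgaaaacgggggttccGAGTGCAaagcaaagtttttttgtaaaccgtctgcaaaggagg
Slc30a4, chr2:122702664-122702913, minus strand: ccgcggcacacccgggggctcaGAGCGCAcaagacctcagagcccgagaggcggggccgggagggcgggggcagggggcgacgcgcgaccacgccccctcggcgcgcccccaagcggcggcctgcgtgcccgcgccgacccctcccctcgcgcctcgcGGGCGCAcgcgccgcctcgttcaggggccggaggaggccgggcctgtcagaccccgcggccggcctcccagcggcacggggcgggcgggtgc
The match of Slc30a1 begins 43 bases before the start, and those of Slc30a4 begin 228 and 92 bases before it, all on the opposite strand. Such a match is common, in 21.4% of all windows of this length and in the windows of 23.8% of all genes, 40.7% of the 59 carriers with a window and 50% of the 20 zinc carriers with a window. Of the measured zinc carriers with a window, 2 of 4 that rose held a match, 0 of 1 that fell and 3 of 9 that did not pass. The match is a description of letters and does not show a bound site.

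The other exporters above the filter did not pass. Slc30a6, which with Slc30a5 and Slc30a7 serves the secretory pathway, had a change of 0.21 (95% interval 0.04 to 0.37, adjusted p = 0.0594), with all old arrays above all young ones. Slc30a5 (0.08, interval -0.05 to 0.20), Slc30a7 (0.22, interval -0.26 to 0.69) and Slc30a9 (0.08, interval -0.06 to 0.22) had overlapping ages. These intervals are not adjusted for the number of probe sets. Slc30a2, Slc30a3, Slc30a8 and Slc30a10, carriers of secretory granules, synaptic vesicles and manganese export, were at 2.14 on all 6 arrays.

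Slc39a12, a zinc importer found mainly in brain, had the largest rise of any carrier above the filter. It was dim in young cells, at 4.32, 3.36 and 3.996, and read 6.20, 7.20 and 6.38 in old cells. All old arrays lay above all young arrays, and young replicates 2 and 3 lay under log2 4. The fitted change was 2.70 ± 0.36 (log2, SE, adjusted p = 0.00379). The mean of its old arrays lay 4.82-fold above its highest young array. It reached the filter only through the old arrays, where it was high, so nothing is drawn from that p-value or from its place in the counts. Of the 7 measured astrocyte markers given above 4 were higher and 1 lower on the same old arrays, beside 20.1% higher and 16.5% lower of all probe sets tested. The part of these markers in this result was not tested.

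Slc39a14, which brings in zinc, iron and manganese, read 9.13, 8.87 and 8.88 in young and 9.50, 9.31 and 9.65 in old cells. It rose by 0.53 ± 0.12 (log2, SE, adjusted p = 0.0211), a call lost without old replicate 1 or 3 or young replicate 2 or 3 (adjusted p from 0.0546 to 0.0693). Slc39a9, a zinc carrier of the Golgi, went from 11.05, 11.07 and 10.998 to 11.20, 11.23 and 11.30. Its rise of 0.20 ± 0.05 (log2, SE, adjusted p = 0.0293) was lost on leaving out any array except young replicate 2 (adjusted p from 0.0576 to 0.0904). Slc39a7, which releases zinc from the endoplasmic reticulum, went the other way, from 11.999, 12.03 and 12.10 to 11.88, 11.88 and 11.89. The fall of 0.16 on the log2 scale (SE 0.05, adjusted p = 0.0485) was the smallest that passed and was lost on leaving out any single array (adjusted p from 0.0600 to 0.130). It was lost as well when arrays were centred on their medians or quantile normalized again.

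The remaining importers did not pass. Slc39a13, a carrier of the secretory pathway tied to connective tissue, had a change of 0.92 (95% interval 0.15 to 1.69, adjusted p = 0.0659) from levels near log2 4. Slc39a11 had a change of -0.46 (interval -0.87 to -0.05, adjusted p = 0.0811). The ages did not overlap for either. The surface importers Slc39a1 (0.01, interval -0.20 to 0.22), Slc39a6 (-0.03, interval -0.17 to 0.11) and Slc39a10 (-0.09, interval -0.26 to 0.07) had overlapping ages. Slc39a3 had a change of -0.11 (interval -0.66 to 0.43). Slc39a4, Slc39a5 and Slc39a8 were at the floor on all arrays, and Slc39a2 reached 2.44 at most.

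Genes that buffer and sense zinc were set beside these carriers. The metallothioneins Mt1 and Mt2, which bind zinc in the cytosol, had changes of 0.07 (adjusted p = 0.420) and -0.10 (adjusted p = 0.562), and the sensor Mtf1 had 0.11 (adjusted p = 0.258). None of these passed. Gpr39, a receptor that responds to zinc outside the cell, rose by 1.22 (adjusted p = 0.0174). Mtf2, whose protein works with Polycomb on chromatin despite its name, had a change of -0.38 (adjusted p = 0.0256). These were all 5 measured genes of the list, with a median change of 0.07.

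Of the iron and copper families Slc11a and Slc31a, 0 of 3 measured carriers passed by the brightest probe set (limma, adjusted p under 0.05), and 1, Slc11a2, had an unadjusted p under 0.05. Of all 19858 probe sets tested 36.6% passed, and unadjusted 5140 were higher and 4290 lower. With 3 carriers nothing is drawn from this count. Slc11a2 encodes the importer of divalent metals that takes iron out of endosomes. It read 9.14, 9.01 and 8.77 in young and 9.33, 9.40 and 9.24 in old cells, and the ages did not overlap. The change was 0.35 ± 0.11 (log2, SE, adjusted p = 0.0529). A second probe set of Slc11a2 rose by 0.69 (adjusted p = 0.0465), and the dimmest of those above the filter had 1.08 (adjusted p = 0.0622). Slc31a1, the copper importer of the cell surface, had a change of 0.07 (95% interval -0.07 to 0.22, adjusted p = 0.362) by its brightest probe set and rose by 0.26 (adjusted p = 0.00925) by another. Its relative Slc31a2 was dim, at 3.45 to 4.37, with overlapping ages. Slc40a1, which encodes the iron exporter ferroportin, and Slc11a1, a carrier of phagocytes, were at 2.14 on every array.

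Partner genes of iron and of copper transport were counted separately. Of 17 measured genes of iron uptake, storage and sensing 6 rose and none fell in limma (8 and 2 at an unadjusted p under 0.05), with a median change of 0.20. The share that passed, 35.3%, was near the 36.6% of all probe sets tested. Unadjusted, 5140 of those 19858 probe sets were higher and 4290 lower. The ferroxidase ceruloplasmin, Cp, went from 10.38 ± 0.11 to 12.64 ± 0.16 (log2, SD, n = 3, adjusted p = 0.000124). Hfe, which regulates iron uptake, lay under log2 4 on all young arrays and rose at least 12.7-fold. It came above the filter only through the old arrays, where it was high, so nothing is drawn from the count of iron genes. The heme transporter Slc48a1 rose by 0.94 and the ferritin heavy chain Fth1 by 0.26. Of 10 measured copper genes none rose and 2 fell (1 and 2 at an unadjusted p under 0.05), with a median of 0.04. The copper share that passed was 20%, beside 36.6% of all probe sets tested. The copper pump Atp7b went from 8.54 ± 0.64 to 6.11 ± 0.17 (log2, SD, n = 3, adjusted p = 0.00402), and Commd1, which acts on copper pumps, had a change of -0.21. The related pump gene Atp7a, named here after its value was seen, had 0.11 (adjusted p = 0.315).

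**Figure D2:**
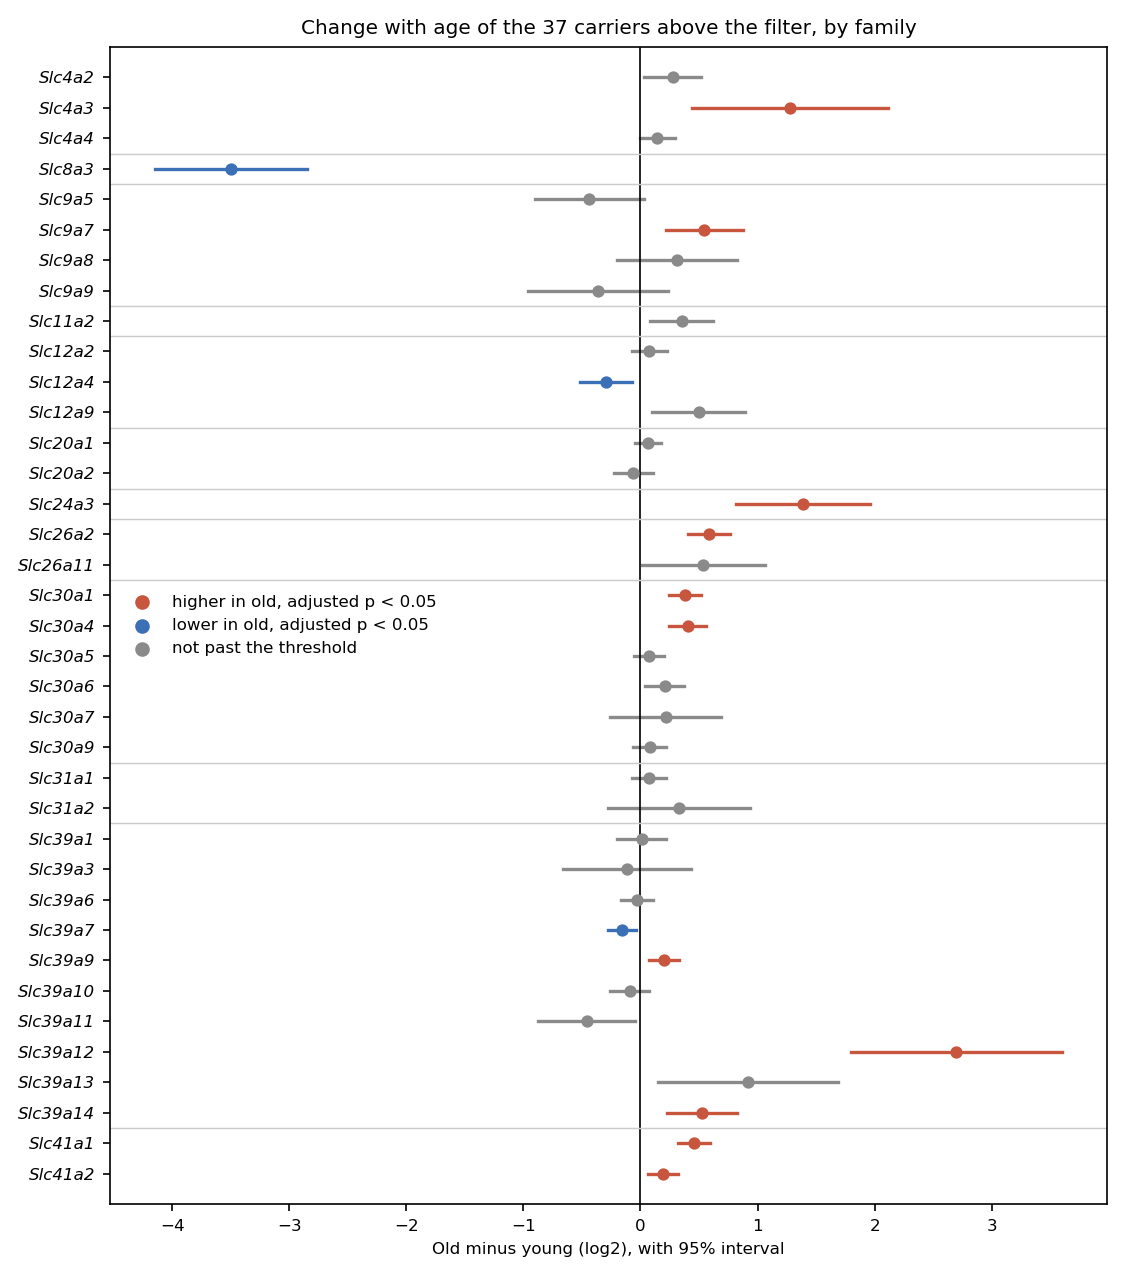
Old minus young log2 change of the 37 carriers above the filter, with unadjusted 95% intervals, ordered by family and number; red and blue mark carriers higher and lower at an adjusted p under 0.05. Slc39a12 at 2.70 and Slc8a3 at -3.50 lie at the ends, and most other changes lie within 1 log2 unit of 0.

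Among the acid-base and anion carriers 3 of 9 rose and none fell in limma (5 and 0 at an unadjusted p under 0.05). The share that passed, 33.3%, was near the 36.6% of all probe sets tested. Unadjusted, 5140 of those 19858 probe sets were higher and 4290 lower. Slc4a3 encodes an exchanger of chloride for bicarbonate. It read 6.36, 5.14 and 5.96 in young and 6.85, 7.13 and 7.33 in old cells. Young replicate 2 was the lowest array, and the ages did not overlap. The rise was 1.28 ± 0.33 (log2, SE), or 2.43-fold (adjusted p = 0.0327), and its call was lost without any old replicate or young replicate 3 (adjusted p from 0.0624 to 0.104). It did not pass either with no filter or with the replicate number as a block.

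The other bicarbonate carriers had small changes by their brightest probe sets. Slc4a2, the widespread chloride-bicarbonate exchanger, had 0.28 (95% interval 0.03 to 0.52, adjusted p = 0.0767). Slc4a4, the sodium-bicarbonate cotransporter of astrocytes and other cells, read 13.61, 13.72 and 13.58 in young and 13.74, 13.85 and 13.75 in old cells. Its change of 0.15 (interval -0.01 to 0.30, adjusted p = 0.119) did not pass, although the ages did not overlap. Of the other 3 probe sets of Slc4a4 above the filter, 1 passed, at 0.62 (adjusted p = 0.00572), and the others had 0.27 (adjusted p = 0.0587) and 0.38 (adjusted p = 0.0560). Slc4a1, Slc4a5, Slc4a9, Slc4a10 and Slc4a11 were at the floor on all arrays.

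Of 4 measured sodium-proton exchangers 1 rose and none fell, beside 20.1% higher and 16.5% lower of all probe sets tested. Slc9a7, which acts in the Golgi, read 10.72, 10.85 and 10.54 in young and 11.40, 11.33 and 11.02 in old cells. It rose by 0.55 ± 0.13 (log2, SE), or 1.46-fold (adjusted p = 0.0260), a call lost without old replicate 1 or 2 or young replicate 1 or 3 (adjusted p from 0.0625 to 0.0862). Slc9a5, found mainly in neurons, had a change of -0.44 (95% interval -0.90 to 0.03), Slc9a8 of the Golgi had 0.31 (interval -0.20 to 0.82) and the endosomal Slc9a9 had -0.36 (interval -0.96 to 0.24). None of these 3 passed, and their ages overlapped. Slc9a5 passed with the replicate number as a block (adjusted p = 0.0263).

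Slc26a2 encodes a sulfate carrier that feeds the sulfation of proteoglycans. It read 9.87, 9.96 and 9.95 in young and 10.57, 10.39 and 10.57 in old cells. The rise was 0.58 ± 0.07 (log2, SE) with an adjusted p of 0.00280. A dimmer probe set of the gene rose by 0.83 (adjusted p = 0.00639). The young arrays lay close together, and no old array came near them. Slc26a11, another anion carrier, had 0.54 (adjusted p = 0.0996) from levels near log2 4. The other 8 Slc26a genes were under the filter, and Slc26a6 came closest, at 2.20 to 2.54 in young and 3.31 to 3.67 in old cells.

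Partner genes of acid-base transport included 4 of 13 that rose and 1 that fell, with a median change of 0.15. The share that passed, 38.5%, was near the 36.6% of all probe sets tested. Slc9a3r2, a scaffold protein that binds sodium-proton exchangers and is no carrier itself, went from 5.47 ± 0.23 to 8.01 ± 0.17 (log2, SD, n = 3, adjusted p = 0.000273). Ezr, which links such scaffolds to actin, rose by 0.96 (adjusted p = 0.00104). The carbonic anhydrases Car2 and Car3, of the enzyme family that makes bicarbonate, went opposite ways, with 0.60 (adjusted p = 0.00177) and -1.07 (adjusted p = 0.00469).

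Of the 5 measured chloride and phosphate cotransporters, 0 rose and 1 fell in limma (1 and 1 at an unadjusted p under 0.05). The share that passed was 20%, beside 36.6% of all probe sets tested. Unadjusted, 5140 of those 19858 probe sets were higher and 4290 lower. Slc12a2, the cotransporter that brings chloride into cells, read 13.58, 13.55 and 13.51 in young and 13.71, 13.54 and 13.60 in old cells. The ages overlapped, and its change of 0.07 had a 95% interval of -0.08 to 0.22 (adjusted p = 0.371). Its other probe sets had 0.36 (adjusted p = 0.0662) and 0.21 (adjusted p = 0.214). Slc12a4, which takes potassium and chloride out of cells, read 10.56, 10.51 and 10.81 in young and 10.32, 10.32 and 10.36 in old cells. Young replicate 3 was the high array, and the ages did not overlap. The fall of 0.30 on the log2 scale (SE 0.09, adjusted p = 0.0499) was just inside the threshold and was lost without any old replicate or young replicate 1 (adjusted p from 0.0752 to 0.130). Slc12a9, a relative with no settled substrate, had 0.50 (interval 0.10 to 0.89, adjusted p = 0.0595). Slc12a5, the chloride extruder of mature neurons, stayed between 2.48 and 2.59 on the 6 arrays.

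The phosphate importers Slc20a1 and Slc20a2 had changes of 0.06 (95% interval -0.05 to 0.17) and -0.06 (interval -0.23 to 0.11), and neither passed. Of their 3 measured partner genes 1 rose, Ank, which moves pyrophosphate out of cells, by 0.34 (adjusted p = 0.00716). That share of 33.3% stood beside 36.6% of all probe sets tested. Alpl had 0.32 (adjusted p = 0.421) and the phosphate exporter Xpr1 -0.04 (adjusted p = 0.525).

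Among 13 measured genes that set sodium, potassium and chloride 3 rose and 2 fell, with a median change of 0.00. The share that passed, 38.5%, was near the 36.6% of all probe sets tested. The kinase Stk39, which phosphorylates chloride cotransporters, went from 11.81 ± 0.14 to 10.51 ± 0.05 (log2, SD, n = 3, adjusted p = 0.000383). Its relative in that task, Oxsr1, had 0.00 (adjusted p = 0.974) and is named after its value was seen. Wnk4, a kinase upstream of both, rose by 0.97 (adjusted p = 0.00608). Fxyd6, which modulates the sodium pump, lay under log2 4 on all old arrays and fell at least 23.8-fold. It came above the filter only through the young arrays, where it was high, so nothing is drawn from the count of this list. The chloride channel gene Clcn2 rose by 1.90 (adjusted p = 0.00820).

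**Figure D3:**
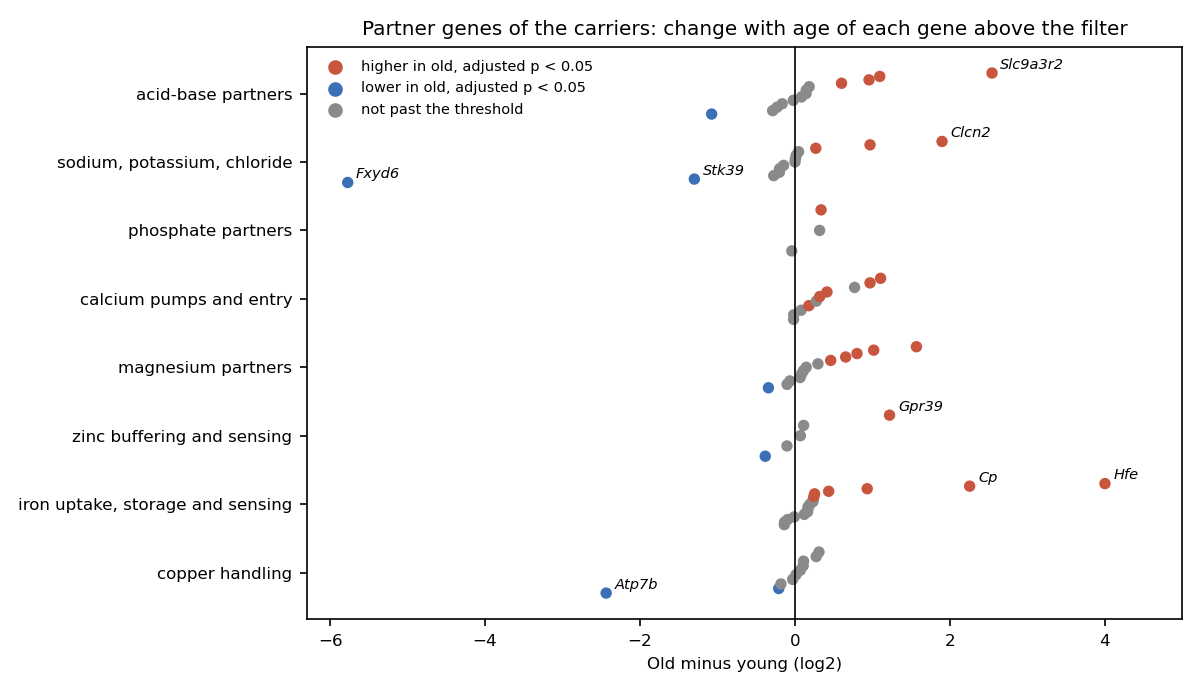
Old minus young log2 change of each partner gene above the filter, by the transport task of its list; red and blue mark genes higher and lower at an adjusted p under 0.05. Fxyd6 and Atp7b lie far to the left, Hfe, Slc9a3r2 and Cp far to the right, and most genes of the copper list lie close to 0.

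Several probe sets above the filter read 11 of the carriers, and in all 11 they had the same sign of change. For Slc26a2, Slc30a1 and Slc41a1 both probe sets passed. For Slc4a4, Slc11a2 and Slc31a1 a dimmer probe set passed where the brightest did not, so these 3 carriers are not counted among those that passed. For the 26 other measured carriers only 1 probe set was above the filter.

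**Figure D4:**
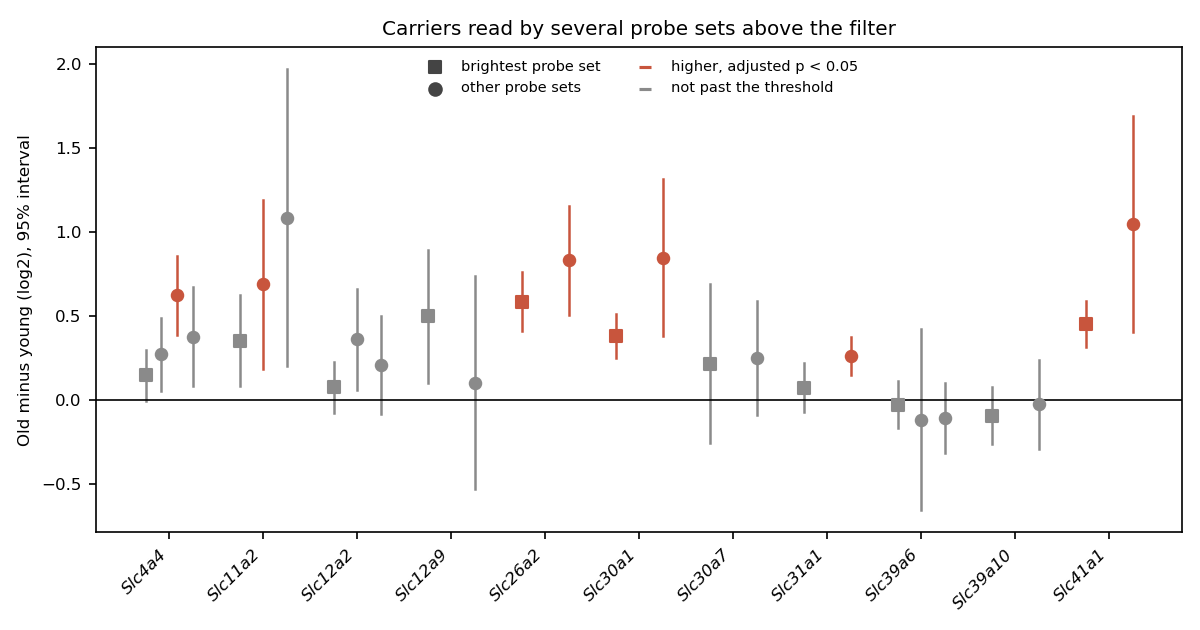
Old minus young log2 change, with unadjusted 95% intervals, of every probe set above the filter for the 11 carriers with several; squares are the brightest probe sets, circles the others, and red marks an adjusted p under 0.05. All probe sets of a carrier lie on the same side of 0, and Slc4a4, Slc11a2 and Slc31a1 have red circles beside a grey square.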

How the data were processed

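RNA of 6 neural stem cell samples was measured on Affymetrix-type probe sets. The authors deposited log2 values. Per the submitters' processing notes they used GCRMA, which corrects background and normalizes between arrays, in a version not given in the sources used here. GCRMA pushes dim probe sets to a shared floor of log2 2.14, so their spread is understated and large changes out of it have an uncertain size. Scanner files were not used here.

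After 64 control probe sets were left out of 45101, names were taken from the array's annotation (34945 with 1 symbol, 932 with several, 9160 unnamed here). Entrez identifiers matched RefSeq names of GRCm38.p6 for 99.4%, and 0 symbols changed. The 75 carriers had 144 probe sets. A probe set was kept when above log2 4 on at least 3 arrays, 19858 in all. Old and young were compared in R 4.3.3 by limma 3.58.1 (lmFit, eBayes, two-sided, 4 residual and 1.47 prior degrees of freedom). P-values were adjusted by Benjamini-Hochberg over every kept probe set, with 0.05 as the threshold. The script was tested on simulated data. A fold against an age under log2 4 on every array is a bound computed against log2 4. The number of arrays limits the precision.

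Every carrier could be named, with values on all arrays for those past the threshold, and up to 4 partner genes of each list with the smallest p. The carriers, the partner lists and the markers were chosen with earlier results of these data known. Alternatives were other filters, normalizations, weights, eBayes options, a stricter threshold, the replicate number as a block, the mean of a gene's probe sets and leaving out each array. Python 3.11.15 and matplotlib 3.10.9 drew the figures.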

Additional observations from a re-analysis of the deposited data

How the results depend on the processing

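Of the 14 carriers that passed, 7 kept their call and direction under all 16 alternatives (Slc8a3, Slc24a3, Slc26a2, Slc30a1, Slc30a4, Slc39a12 and Slc41a1), 7 lost the call under at least 1, and 0 changed direction. Slc8a3 passed the filter only through its high young arrays and Slc39a12 only through its high old arrays, so the constancy of both carries no weight. Of the 23 that did not pass, 10 passed under at least 1. At a threshold of 0.01, which is stricter by construction, 3777 probe sets passed in place of 7268, with 6 carriers higher and 1 lower in place of 11 and 3. By group that left 1 acid-base carrier higher, 0 chloride and phosphate carriers lower, and 3 zinc, iron, copper and manganese carriers higher with 0 lower.

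On leaving out 1 array, the carriers higher ranged from 6 to 11 and those lower from 1 to 3. Acid-base carriers higher ranged from 1 to 4, chloride and phosphate carriers from 0 to 1 higher and from 0 to 1 lower, and the metal carriers from 3 to 5 higher and from 0 to 1 lower. The lone chloride carrier that fell was lost (0 lower) with no filter and with a filter on the mean of the 6 arrays. A chloride carrier passed as higher (1 in place of 0) with array weights and with centring on medians. Metal carriers lower were 2 with array weights and with trend and robust options, and 0 with centring. The cause was not tested. Changes close to 0 reversed for 3 carriers, none of which passed: on leaving out 1 array Slc39a1 ranged from -0.056 (without young replicate 3, and -0.0040 without young replicate 1) to 0.091, while Slc39a3 ranged from -0.33 to 0.064 and Slc39a6 from -0.063 to 0.0039, both positive without young replicate 1.

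The labels give both ages replicate numbers 1 to 3 and do not say whether same-numbered arrays belong together. Deviations of same-numbered arrays from the mean of their age correlated at -0.16, -0.11 and 0.16. With 3 arrays per age, these values cannot settle whether same-numbered arrays were handled together. With the replicate block, 5600 probe sets passed, with 9 carriers higher and 2 lower, among them 1 acid-base carrier lower, 0 chloride carriers lower and 0 metal carriers lower.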
